A study of Rattus norvegicus with 12 samples.

Results

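Sqstm1 (ENSRNOG00000003147) and Tecpr1 (ENSRNOG00000001010) are 2 of the 32754 genes counted in rat chondrosarcoma chondrocytes (RCS), and both code for proteins of autophagy. They were taken by identifier, and both had been chosen by their values in these same libraries, as genes higher under FGF18 in wild-type (WT) RCS and not in RCS lacking FGFR3 and FGFR4. The FGF18 responses of both genes, the difference between those responses and the genotype difference under FGF18 are therefore given as description with no test. The genotype difference without FGF18 was not itself a criterion of that choice and was tested for Sqstm1, although the untreated libraries of both lines served in it as the baselines. RNA was measured by QuantSeq, which sequences the 3′ ends of transcripts, in 3 libraries each of WT RCS untreated, WT RCS with FGF18, FGFR3/4KO RCS untreated and FGFR3/4KO RCS with FGF18. FGF18 was given overnight at 50 µg/ml by the labels, whereas the paper states 50 ng/ml for this experiment. The labels and the paper thus differ in the unit. FGFR3/4KO RCS is a single clone made with CRISPR/Cas9, so the effect of the deletions and the history of that clone cannot be told apart.

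SQSTM1, also called p62, is a receptor that binds ubiquitin-tagged cargo and LC3, a protein attached to the growing autophagosome membrane, and so links the cargo to autophagy. It is itself degraded in lysosomes, and through KEAP1 it connects autophagy with the transcription factor NRF2 (gene Nfe2l2). TECPR1 binds the ATG12-ATG5 conjugate and takes part in the fusion of autophagosomes with lysosomes and in the attachment of LC3 to damaged lysosomes. In chondrocytes, which secrete large amounts of collagen, autophagy also clears endoplasmic reticulum that holds misfolded procollagen. Transcript counts measure neither protein nor autophagic flux.

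The regulatory sequences of both genes are shown because TFEB and TFE3, transcription factors of lysosome and autophagy genes, recognise the CLEAR motif, which has the E-box CACGTG at its centre. The site table of the study holds 1 such site of 14 bases for each gene, with the central 6 bases in capitals here.
Sqstm1 site, chr10:35715948-35715961: tggtCAGGCGgccg
Tecpr1 site, chr12:12374375-12374388: gagtCACGTGtcct
The table states neither the build nor the strand of these sites, and the reads of the series were aligned to rn6. The Tecpr1 site held the whole E-box. The central bases of the Sqstm1 site differed from the E-box by C3G and by T5C, counted from 1 at the first of these bases, with the base of the E-box written first.

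The 250 bases before the start of Sqstm1, from RefSeq on build GRCr8 and written along the strand of the gene, are shown with matches to 3 promoter elements in capitals: the GC box (GGGCGG), the CCAAT box and the TATA box (TATAAA), each on either strand.
Sqstm1, chr10:35037751-35038000, minus strand: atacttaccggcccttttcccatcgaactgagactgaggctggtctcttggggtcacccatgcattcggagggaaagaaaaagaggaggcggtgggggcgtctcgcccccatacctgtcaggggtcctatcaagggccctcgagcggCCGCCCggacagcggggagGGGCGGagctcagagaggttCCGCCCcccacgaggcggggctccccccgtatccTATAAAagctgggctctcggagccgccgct
The window of the same length for Tecpr1, chr12:15505104-15505353 on the plus strand, lies inside the gene as RefSeq delimits it, not before its outermost start, and its letters are not printed. Both windows were rich in G and C, at 65.2% for Sqstm1 and 66.0% for Tecpr1. The Sqstm1 window held 3 GC boxes, starting at −103, −84 and −64, and a TATA box at −30. The Tecpr1 window held 1 GC box at −53 and a CCAAT box at −86. Of all 33469 promoter windows of this length, 30.5% held a GC box, 34% a CCAAT box and 12.9% a TATA box. The E-box, the antioxidant response core TGACNNNGC bound by NRF2 and the AP-1 site TGANTCA were in neither window, and 5.59%, 10.1% and 6.34% of all windows held them. These matches describe letters only. The study placed the sites listed above at 300 bases from a start site for Sqstm1 and −414 for Tecpr1. Both positions are outside the 250 bases before a start, so the lack of an E-box here does not bear on those sites. Their coordinates also belong to a different set.

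The libraries held 373964 to 1196647 reads on genes, and FGFR3/4KO untreated replicate 2 was the shallowest. Levels are given in CPM (reads of a gene per 1000000 reads on tested genes) scaled by TMM, so that 3 reads stood for 2.46 to 8.50 CPM. The share of reads on genes was 12.5 to 14.6% in WT and 17.0 to 18.8% in FGFR3/4KO RCS, and reads set aside for low alignment quality made up 77.0 to 79.8% and 71.2 to 74.6%. These shares differed with genotype without overlap, and their part in the genotype differences was not tested. Of 19 chondrocyte markers, 4 were named. Sox9 lay at 1262 to 2055 CPM, and Col11a2 and Fmod were also high, whereas Epyc was under the filter on low counts. Fmod was lower in WT RCS with FGF18 than without by a log2 difference of −0.57 (edgeR adjusted p = 0.00206), and in untreated FGFR3/4KO RCS Fmod and Col11a2 were higher than in WT RCS by 1.01 and 0.40 (adjusted p = 5.6e-06 and 0.0414). That Col11a2 call was kept in 5 of 7 other settings and in 7 of 12 fits without a library, whereas the Fmod call was kept in all of them. The interaction for Fmod was 0.79 (adjusted p = 0.00505). Of 5 fibroblast markers, 3 were named. Pdgfra was at 0 to 1.999 CPM in WT untreated RCS, 6.56 to 11.1 CPM in WT RCS with FGF18 and 0 to 2.76 CPM in FGFR3/4KO RCS, so it was highest in the same group as Sqstm1 and Tecpr1. Col1a1 was at 0 to 4.08 CPM in WT untreated RCS, 5.74 to 22.2 CPM with FGF18 and 2.64 to 12.1 CPM in FGFR3/4KO RCS, and both genes were under the filter. Thy1 was at 15.0 to 18.99 CPM in WT untreated RCS and 8.62 to 13.9 CPM with FGF18, not called. The part of these markers in the results was not tested. Hypertrophic chondrocyte, osteoblast, macrophage and endothelial markers were not analysed here by name. Fgfr3 and Fgfr4 were not either, so the deletion itself was not checked. In bulk samples such as these, fewer cells of a type and less RNA per cell cannot be told apart.

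Sqstm1 was higher in the WT libraries with FGF18 than in the libraries of any other group, which lay close together. In WT untreated RCS it had 53, 72 and 76 reads in replicates 1 to 3, or 76.8, 97.9 and 76.0 CPM (mean 83.6 ± 12.4, SD, n = 3). With FGF18 the WT libraries had 198, 183 and 154 reads, or 162, 175 and 190 CPM (mean 176 ± 13.7, SD, n = 3). Every FGF18 library of WT RCS lay above every untreated one, with a gap from 97.9 to 162 CPM. FGFR3/4KO untreated libraries had 64, 30 and 99 reads, or 98.1, 85.0 and 109 CPM (mean 97.2 ± 11.8, SD, n = 3). FGFR3/4KO libraries with FGF18 had 83, 104 and 92 reads, or 109, 92.2 and 84.8 CPM (mean 95.5 ± 12.7, SD, n = 3). The 2 FGFR3/4KO groups and WT untreated RCS overlapped, so that no order among these 3 groups went beyond their spread. The SD between replicates was 0.871 to 1.28 times the SD that counting alone gives, close to what the number of reads gives. In untreated WT RCS the Sqstm1 mean exceeded that of 69.7% of the 7378 genes tested, and with FGF18 that of 85.3%. In FGFR3/4KO RCS it exceeded 73.1% without and 72.2% with FGF18. These counts are of transcript ends, which do not scale with transcript length.

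Tecpr1 was low in 3 of the 4 groups and reached the middle of the range of tested genes in the WT libraries with FGF18. WT untreated RCS had 3, 9 and 7 reads, or 4.35, 12.2 and 6.995 CPM (mean 7.86 ± 4.02, SD, n = 3). With FGF18 the WT libraries had 59, 62 and 21 reads, or 48.4, 59.3 and 25.9 CPM (mean 44.5 ± 17.1, SD, n = 3). The lowest of these, replicate 3, was still above the highest untreated WT library, although it stood apart from the other 2. FGFR3/4KO untreated libraries had 3, 1 and 5 reads, or 4.60, 2.83 and 5.48 CPM (mean 4.30 ± 1.35, SD, n = 3). FGFR3/4KO libraries with FGF18 had 0, 8 and 11 reads, or 0, 7.09 and 10.1 CPM (mean 5.74 ± 5.20, SD, n = 3), and 0 reads in replicate 1 allow a level of up to 3.96 CPM. WT untreated RCS and both FGFR3/4KO groups overlapped, and at this depth their order could not be told. Pooled over 3 libraries, the reads gave exact Poisson 95% intervals of 4.72 to 12.2 CPM in WT untreated RCS and 38.9 to 54.4 CPM in WT RCS with FGF18. The same intervals were 2.15 to 8.91 CPM in FGFR3/4KO untreated RCS and 3.85 to 9.98 CPM with FGF18, and all 4 cover counting error only. The SD in WT RCS with FGF18 was 2.51 times that of counting alone, with replicate 3 furthest from the mean. In FGFR3/4KO RCS with FGF18 it was 2.01 times, with replicate 1 at 0 reads furthest from the mean. In the untreated groups it was 1.27 times in WT and 0.461 times in FGFR3/4KO RCS. The Tecpr1 mean exceeded that of 3.93% of tested genes in WT untreated RCS, 52.0% in WT RCS with FGF18, 1.37% in FGFR3/4KO untreated RCS and 2.66% in FGFR3/4KO RCS with FGF18. Tecpr1 passed the filter on low counts only through the WT libraries with FGF18. Its low place among the tested genes in the other 3 groups thus follows from the filter and the choice of the gene, and nothing is read from it.

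**Figure D1:**
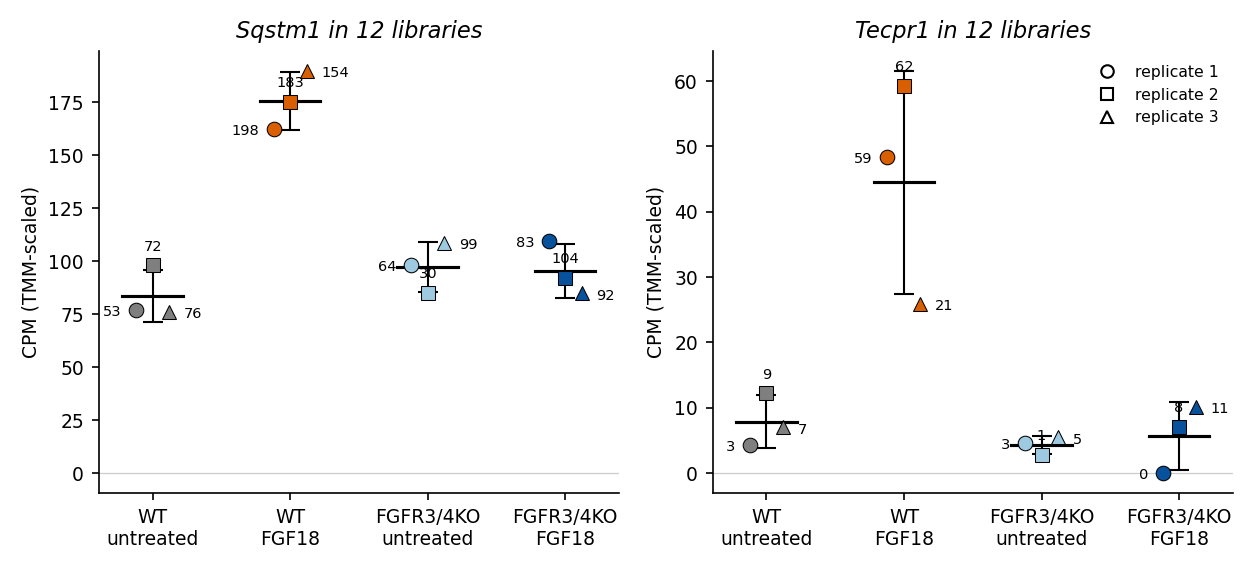
CPM (TMM-scaled, linear axes) of Sqstm1 (left) and Tecpr1 (right) in the 12 libraries, by group. Symbols are libraries, with shapes for replicates 1 to 3 and the number of reads beside each, and lines and bars give the mean and SD over 3 libraries. The WT libraries with FGF18, at 162 to 190 CPM for Sqstm1 and 25.9 to 59.3 CPM for Tecpr1, are above all 9 others.

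The balance of the 2 genes is given as a description, since both were chosen on the WT response. The share of Tecpr1 among the reads of both genes needs no scaling between libraries, and it was 8.64% in WT untreated RCS (19 of 220 reads, exact binomial 95% interval 5.28 to 13.2%). In WT RCS with FGF18 it was 21.0% (142 of 677 reads, 18.0 to 24.2%). In FGFR3/4KO RCS it was 4.46% untreated (9 of 202 reads, 2.06 to 8.29%) and 6.38% with FGF18 (19 of 298 reads, 3.88 to 9.78%). Within WT RCS with FGF18, replicates 1 and 2 had shares of 23% and 25.3% and replicate 3 had 12%, close to the highest untreated WT library at 11.1%, and the intervals of these 2 libraries overlapped (7.58 to 17.8% and 5.21 to 20.0%). Replicate 3 had the lowest Tecpr1 and the highest Sqstm1 level of its group.

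**Figure D2:**
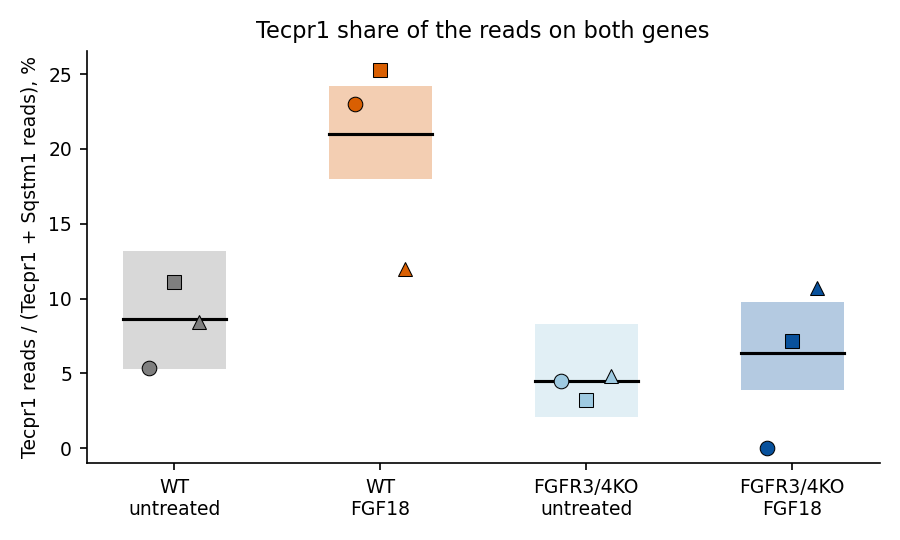
Share of Tecpr1 in the summed reads of Tecpr1 and Sqstm1, in percent, by group. Circles, squares and triangles are replicates 1, 2 and 3, lines are the pooled shares of 3 libraries and shaded boxes their exact binomial 95% intervals. The pooled share is 21.0% in WT RCS with FGF18 and 4.46 to 8.64% in the other groups, with replicate 3 of the former at 12%.

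Without FGF18, Sqstm1 in FGFR3/4KO RCS did not differ from WT RCS beyond the spread between libraries. It differed by a log2 fold change of 0.25 (SE 0.18, 95% interval −0.12 to 0.62), with an adjusted p of 0.388 in edgeR's quasi-likelihood test, n = 3 per group. An exact permutation test of its CPM, two-sided, gave p = 0.2, where the smallest p that 3 against 3 libraries allow is 0.1. Tecpr1 passed the filter on low counts only through the WT libraries with FGF18, so its value is a description with no test. Its log2 difference was −0.73 (SE 0.71, 95% interval −2.18 to 0.72), from 28 reads in 6 libraries, and at this depth a difference could not be resolved. Without WT untreated replicate 2 it was −0.33. Of the 7378 tested genes, 8.00% were higher and 6.07% lower in FGFR3/4KO RCS at an adjusted p under 0.05.

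The values behind the choice of both genes were the following. In WT RCS with FGF18 the fitted level of Sqstm1 was higher by 1.07 on the log2 scale (SE 0.16), or 2.10-fold, which placed it 432nd from the top among 7378 tested genes. Tecpr1 was higher by 2.51 (SE 0.44), or 5.68-fold, in 64th place. In that comparison 12.9% of the tested genes were higher and 12.8% lower, and nothing is read from these shares for 2 genes picked on it. In FGFR3/4KO RCS the log2 differences were −0.07 (SE 0.17) for Sqstm1 and 0.42 (SE 0.71) for Tecpr1, the latter resting on 28 reads in 6 libraries. The difference between the FGF18 responses, FGFR3/4KO minus WT, was −1.14 (SE 0.24) for Sqstm1 and −2.09 (SE 0.92) for Tecpr1. Under FGF18 the FGFR3/4KO libraries were lower than WT by a log2 difference of −0.89 (SE 0.16) for Sqstm1 and −2.82 (SE 0.44) for Tecpr1. These comparisons share libraries, and so do not count as separate observations.

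**Figure D3:**
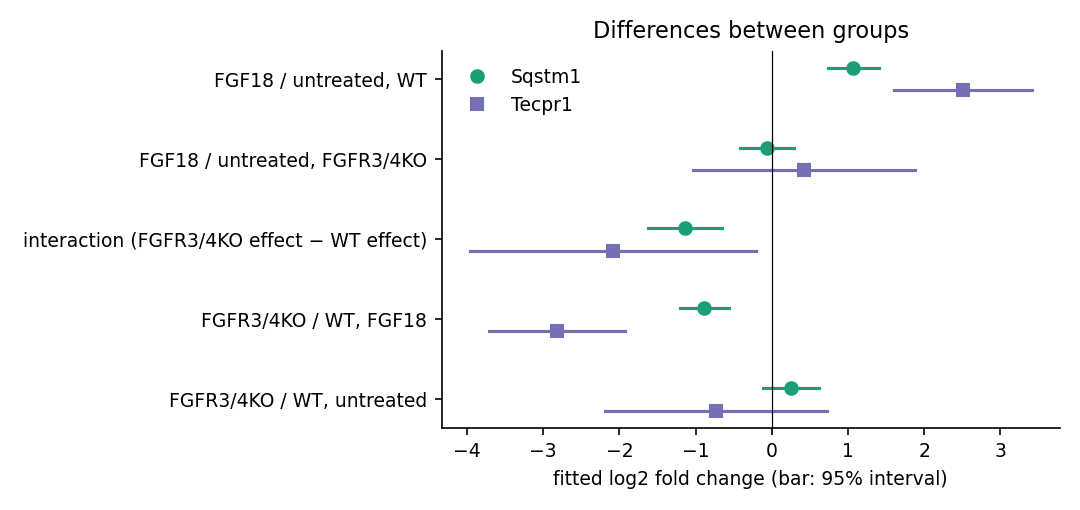
Fitted log2 fold changes of Sqstm1 (circles) and Tecpr1 (squares) in 5 comparisons, with 95% intervals as bars. Only Sqstm1 in the lowest pair, FGFR3/4KO against WT untreated, was tested, and both intervals of that pair include 0. The intervals of Tecpr1 are wider than those of Sqstm1 in each comparison.

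The proteins that work with SQSTM1 and TECPR1 were looked up among 17 symbols, of which 7 could be named by identifier and 6 passed the filter on low counts. Nfe2l2, which codes for NRF2, was at 40.6 to 46.2 CPM in WT untreated RCS and 67.0 to 79.5 CPM with FGF18, without overlap. It rose by 0.70 on the log2 scale (SE 0.22, edgeR adjusted p = 0.018), and the call was lost without WT untreated replicate 1 or 3 or WT FGF18 replicate 1. In FGFR3/4KO RCS its log2 difference was −0.02 (SE 0.24), and the difference between the responses, −0.72 (SE 0.32), did not pass the test (adjusted p = 0.168). Under FGF18, Nfe2l2 was lower in FGFR3/4KO than in WT RCS by a log2 difference of −0.54 (SE 0.21, adjusted p = 0.0474 in edgeR), a call kept without FGFR3/4KO FGF18 replicate 2 or 3 and lost in the other 10 fits that left out a library, and kept in 2 of 7 other settings. Gclc, an enzyme of glutathione synthesis under NRF2 control, was the other named gene of that pathway and was not called in any of the 5 comparisons. It had only 2 to 16 reads a library and SEs of 0.47 to 0.71. A difference of the size seen for Nfe2l2 could not be resolved for it.

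Atg12, a part of the conjugate that TECPR1 binds, was higher in FGFR3/4KO RCS. Its levels were 87.0 to 113 CPM in WT untreated RCS and 163 to 175 CPM in FGFR3/4KO untreated RCS, a log2 difference of 0.71 (SE 0.16, adjusted p = 0.00221 in edgeR). With FGF18 the difference was 0.43 (SE 0.15, adjusted p = 0.0214). FGF18 itself was not followed by a called change of Atg12 in either line, with log2 differences of 0.18 (SE 0.15) in WT and −0.09 (SE 0.15) in FGFR3/4KO RCS. Atg5, the other part, had a log2 difference of 0.49 (SE 0.35) under FGF18 in WT RCS and 0.14 (SE 0.38) in FGFR3/4KO RCS, and neither passed the test. Wipi2, which recruits the conjugation machinery and binds phosphoinositides as TECPR1 does, had −0.13 (SE 0.38) and 0.54 (SE 0.43), also not called. Tbk1, the kinase that phosphorylates SQSTM1, and Rptor, the mTORC1 subunit that SQSTM1 binds, had 0.35 (SE 0.30) and 0.20 (SE 0.26) in WT RCS, not called. Traf6, a ubiquitin ligase bound by SQSTM1, was under the filter at 0 to 9.84 CPM.

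Of 103 symbols on a list of autophagy genes, 19 could be named by identifier and 17 were tested. In WT RCS 3 rose with FGF18, 2 fell and 12 did not pass, where 25.7% of all tested genes were called (12.9% higher, 12.8% lower), a share near that of the list. The median log2 difference was 0.19 against 0.02 over all tested genes. Flcn, which codes for folliculin, a regulator of mTORC1 and TFEB at the lysosome, rose by 1.79 (SE 0.30, adjusted p = 4.51e-05 in edgeR), from 10.9 to 11.99 CPM without to 39.2 to 41.0 CPM with FGF18. Lamp2, a lysosomal membrane protein needed for autophagosome clearance, rose by 1.25 (SE 0.28, adjusted p = 0.00153), from 8.70 to 24.98 CPM without to 38.2 to 51.6 CPM with FGF18. Lamp2 was the 1 gene of these 17 in the study's site table, whose genes were chosen on these libraries, so its rise is not independent evidence. Whether the study had also chosen others of the 17 was not checked beyond that table. Wipi1, a phosphoinositide-binding protein of the early autophagosome, rose by 0.54 (SE 0.19, adjusted p = 0.0369), a call kept in 3 of 7 other settings and 8 of 12 fits without a library. It was lost without WT untreated replicate 1 or 3 or WT FGF18 replicate 2 or 3.

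The members that fell were a fusion protein and a stress sensor. Stx17, the syntaxin of autophagosome fusion with lysosomes and thus the step in which TECPR1 also takes part, fell by 0.76 on the log2 scale (SE 0.23, adjusted p = 0.0137 in edgeR). Its levels were 61.0 to 66.7 CPM without and 20.9 to 45.0 CPM with FGF18, and without WT FGF18 replicate 3 the call was lost. Snap29, its partner in the fusion complex, had a log2 difference of 0.19 (SE 0.22), not called. Sesn1, an inhibitor of mTORC1 signalling, fell by 0.71 (SE 0.26, adjusted p = 0.0428), and the call was lost without any 1 of the 6 WT libraries and kept in 4 of 7 other settings.

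In FGFR3/4KO RCS 0 of the 17 genes were called by edgeR after FGF18, and 0 of them reached 0.05 before adjustment. DESeq2 also called 0 of these genes, and their median was −0.08 on the log2 scale against 0.01 over all genes. Over all 7378 genes the share called was 0% higher and 0% lower by edgeR's quasi-likelihood test, with 478 at an unadjusted p below 0.05, while DESeq2 called 0 genes and the likelihood-ratio test of edgeR 3. The difference between the FGF18 responses was called for 2 of the 17 genes, Flcn at −1.87 (SE 0.48, adjusted p = 0.00959) and Lamp2 at −1.39 (SE 0.39, adjusted p = 0.0208), both with the smaller response in FGFR3/4KO RCS. The background was 4.96% of genes lower and 5.91% higher in that term. The Flcn call was lost without FGFR3/4KO untreated replicate 1, and the Lamp2 call without WT untreated replicate 1, WT FGF18 replicate 2 or FGFR3/4KO FGF18 replicate 2. The study had chosen Lamp2 on its FGF18 responses in these lines, so the Lamp2 call is not independent evidence.

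**Figure D4:**
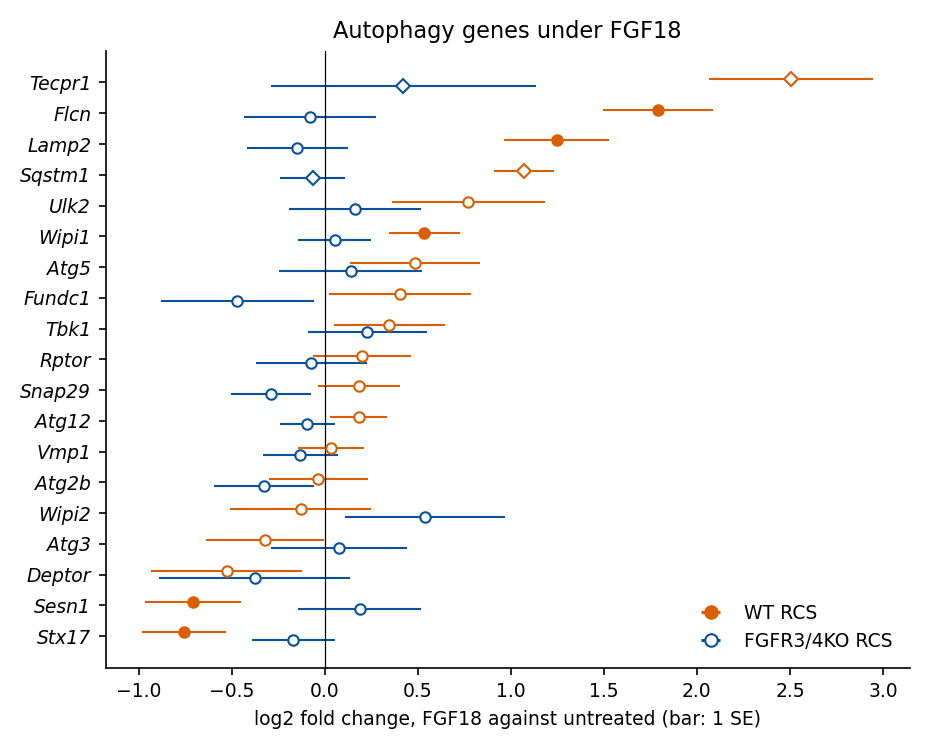
Log2 fold changes under FGF18 in WT (orange) and FGFR3/4KO RCS (blue) for the 17 tested autophagy genes (circles) and for Sqstm1 and Tecpr1 (diamonds, not tested), ordered by the WT value. Bars are 1 SE and filled circles passed an adjusted p under 0.05. Filled circles are seen in WT RCS for 5 genes, from −0.76 for Stx17 to 1.79 for Flcn, and in FGFR3/4KO RCS for 0.

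Between the genotypes without FGF18, 2 autophagy genes were higher and 1 lower in FGFR3/4KO RCS, and 14 did not pass, against 14.1% of all tested genes called (8.00% higher, 6.07% lower), with a median of 0.02 against −0.01 over all genes. Besides Atg12, Lamp2 was higher by 1.05 (SE 0.31, adjusted p = 0.0204 in edgeR), at 39.5 to 45.3 CPM against 8.70 to 24.98 CPM in WT untreated RCS. The Lamp2 call was lost without WT untreated replicate 1 or FGFR3/4KO untreated replicate 1 or 3. Lamp2 in untreated FGFR3/4KO RCS was thus in the range of WT RCS with FGF18, which Sqstm1 and Tecpr1 were not. Sesn1 was lower in FGFR3/4KO RCS by a log2 difference of −1.31 (SE 0.30, adjusted p = 0.00359), at 14.2 to 21.4 CPM against 36.7 to 44.9 CPM.

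Under FGF18, 2 of the 17 genes were higher and 2 lower in FGFR3/4KO than in WT RCS, where 16.9% of all tested genes were higher and 17.0% lower. Flcn was lower by a log2 difference of −1.60 (SE 0.28, adjusted p = 5.72e-05 in edgeR). Vmp1, a membrane protein of autophagosome formation, was lower by −0.63 (SE 0.18, adjusted p = 0.0079), a call lost without FGFR3/4KO FGF18 replicate 3. Stx17 was higher by 0.61 (SE 0.22, adjusted p = 0.036), a call kept in 4 of 7 other settings and lost without WT FGF18 replicate 3 or FGFR3/4KO FGF18 replicate 1 or 2. The Atg12 call was lost without WT FGF18 replicate 2 or FGFR3/4KO FGF18 replicate 2. In the same comparison the chondrocyte markers Sox9, Col11a2 and Fmod were all 3 higher in FGFR3/4KO RCS, by 0.54, 0.44 and 1.79, and their part in these differences was not tested.

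The genes with the profiles most like those of Sqstm1 and Tecpr1 were sought among 1417 other tested genes that carry a symbol. Likeness was the root mean square (RMS) difference of centred log2 CPM over the 12 libraries, which share 4 groups, so that any gene with a similar response ranks high. For Sqstm1, whose own RMS deviation was 0.43, the nearest was Carhsp1, an RNA-binding phosphoprotein, at a difference of 0.19, with a mean of 104 CPM in WT untreated RCS and 220 CPM with FGF18. Atp2b4, a calcium pump of the plasma membrane, lay at 0.19 and Scpep1, a serine carboxypeptidase, at 0.21. Arpc1b, a subunit of the Arp2/3 actin complex, and Phf21a, a chromatin reader, followed at 0.22 each.

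For Tecpr1, whose own RMS deviation was 1.31, the fits were looser, and its low counts enter every one of them. Meltf, melanotransferrin, was nearest at 0.59, with a mean of 67.2 CPM in WT untreated RCS, 244 CPM in WT RCS with FGF18, 50.3 CPM in FGFR3/4KO untreated RCS and 49.1 CPM in FGFR3/4KO RCS with FGF18. Slc8b1, the sodium-calcium exchanger of mitochondria, lay at 0.66, Celf5, an RNA-binding protein, at 0.68, P2rx4, an ATP-gated channel found in lysosomes, at 0.71, and Flot1, a scaffold of membrane rafts, at 0.78. Flot1 had means of 14.7, 112, 10.9 and 11.5 CPM in the same order of groups. Sqstm1 ranked 95th for Tecpr1, and Tecpr1 ranked 1378th for Sqstm1, both at a difference of 1.04. The measure does not scale for the size of a response. A flat profile would lie at 0.43 from Sqstm1, nearer than Tecpr1, so these ranks do not tell whether the patterns of the 2 genes differ.

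**Figure D5:**
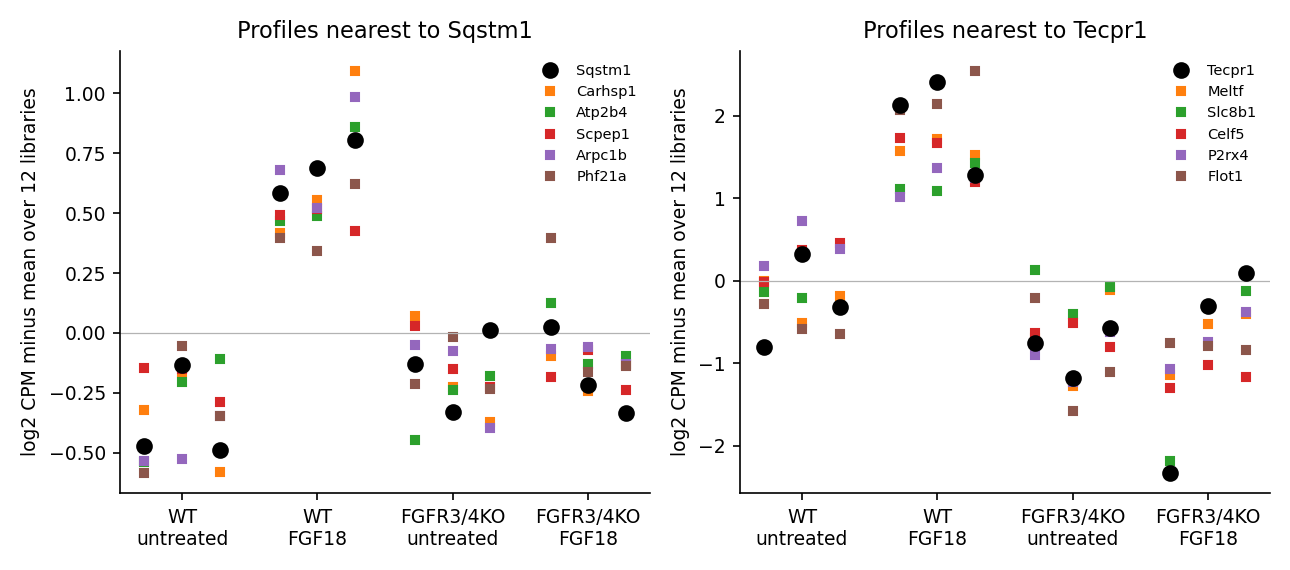
Log2 CPM minus the mean over 12 libraries for Sqstm1 (left) and Tecpr1 (right) in black, and for the 5 genes nearest to each in colours, with 3 libraries per group in the order of their replicate numbers. The nearest genes lie within an RMS difference of 0.19 to 0.22 of Sqstm1 and 0.59 to 0.78 of Tecpr1, and all of them are highest in WT RCS with FGF18.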

How the data were processed

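The authors deposited read counts per gene for 12 libraries made from 100 ng of RNA each. Per the labels, reads were trimmed with Trim Galore and aligned to rn6 with STAR, and each library was counted on its own. Rows that name no gene (5 classes, mostly reads of low alignment quality) were left out of library sizes and tests. Gene names came from the identifier and symbol pairs of a supplementary gene table, of which only a part was held and which named 1998 identifiers. The authors' own fold changes and p-values were not used. A pseudogene of Sqstm1 is annotated in RefSeq, and reads that match both copies cannot be assigned with certainty.

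Counts were filtered with filterByExpr at its default settings (7378 of 32754 genes kept), scaled by TMM and fitted over the 4 groups with edgeR 4.0.16 (R 4.3.3, quasi-likelihood test, Benjamini-Hochberg adjustment over all tested genes, threshold 0.05). The method was tested on simulated data. Single values were compared by exact permutation tests with scipy 1.17.1 (Python 3.11.15). Log2 CPM for the profiles used a prior count of 2. Alternatives were DESeq2 1.42.0, the likelihood-ratio test, upper-quartile scaling, other filters, fits to each pair of groups alone, a block for the replicate number and the omission of single libraries. The labels call the samples biological replicates and do not state separate cultures, so p-values measure the spread between these libraries. Chi-square values over degrees of freedom between replicates were 1.56 to 5.67, above sampling noise. They were 1.56 to 1.87 between untreated replicates of either line. Pairs with FGFR3/4KO FGF18 replicate 1 had 4.62 and 4.65, and the remaining pair of that group 2.00. Pairs with WT FGF18 replicate 3 had 5.67 and 3.55, and the remaining pair of that group 2.99. Poisson and binomial intervals and floors cover counting error only. SEs and intervals of log2 fold changes were computed back from each log2 fold change and its F statistic in the fit. They are approximate and include the spread between libraries.

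Members and lists were chosen with earlier results of these data known. Named were both genes, their partners, of the other list genes up to 10 with the largest change among those past the threshold in each comparison, and the 5 genes nearest in profile to each member.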

Additional observations from a re-analysis of the deposited data

Results flagged for a closer look

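For 2 of 17 tested autophagy genes the FGF18 response differed between the lines by the interaction term of edgeR's quasi-likelihood fit (n = 3 per group). In this term 10.9% of all 7378 tested genes were called (4.96% lower, 5.91% higher), and nothing is read from the count. Flcn rose by 1.79 on the log2 scale in WT RCS and had a log2 difference of −0.08 in FGFR3/4KO RCS, an interaction of −1.87 (adjusted p = 0.00959). Lamp2 rose by 1.25 in WT RCS and had −0.15 in FGFR3/4KO RCS, an interaction of −1.39 (adjusted p = 0.0208). The baselines of the 2 genes differed. Lamp2 was already higher in untreated FGFR3/4KO than WT RCS, by 1.05, and under FGF18 the lines had a log2 difference of −0.34 (SE 0.25), not called. For Flcn the untreated difference was 0.27 (SE 0.38), not called, and the difference under FGF18 was −1.60. Leaving out single libraries ended the Flcn call in 1 of 12 fits and the Lamp2 call in 3 of 12. The WT response of Lamp2, and its absence in FGFR3/4KO RCS, had served in the study's own choice of that gene, so its interaction is not independent evidence.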

How the results depend on the processing

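The 186 values of Sqstm1 and Tecpr1 under the alternatives stayed on the same side of the threshold where a test was made, and otherwise moved by less than the spread between replicates. Leaving out a library gave 0.998 to 1.19 for the log2 response of Sqstm1 in WT RCS and 2.24 to 2.91 for Tecpr1. Between the untreated lines it gave 0.15 to 0.38 and −0.97 to −0.33, the extremes for Tecpr1 being without WT untreated replicates 1 and 2. In FGFR3/4KO RCS it gave −0.15 to 0.05 and −0.14 to 0.88, so neither had a stable sign there. Fitting only the groups compared gave no value for Tecpr1 untreated between the lines or for its FGF18 response in FGFR3/4KO RCS, since its counts fell under the filter, and could give no interaction term. The number of autophagy genes called between the lines without FGF18 was 3, against 5 by the likelihood-ratio test and 6 with only the groups compared. In WT RCS with FGF18 it was 5, against 3 by DESeq2, 3 with no filter and 3 with at least 1 CPM in 3 libraries, and 2 to 5 without a library. For the interaction it was 2 (1 to 2 without a library) and for the lines under FGF18 4 (2 to 4, the lowest without FGFR3/4KO FGF18 replicate 2). All genes called after FGF18 in FGFR3/4KO RCS numbered 0, against 3 by the likelihood-ratio test, 20 with no filter, 1 with at least 1 CPM in 3 libraries, 2 with only the groups compared and 0 to 1 without a library. All genes called between the untreated lines numbered 1038, and 679 to 1211 without a library, the lowest being 687 and 679 without FGFR3/4KO untreated replicate 1 and 3. The cause of these shifts was not tested. Equal replicate numbers did not pair the samples (mean correlation −0.03 over 18 pairs, 0.02 over 36 others). With a replicate block, Sqstm1 and Tecpr1 had 1.07 and 2.50 in WT RCS, and 1760 genes were called there. Depth limits Tecpr1 above all, with 0 to 11 reads a library outside WT RCS with FGF18.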
